A study of Mus musculus with 15 samples.

Results

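Macrophages make, take up, store and export sterol, and 36 genes of this machinery were measured in mouse bone marrow-derived macrophages: the enzymes of sterol and fatty acid synthesis, the SREBP and LXR regulators, and LXR-type target genes. The genes were chosen by name as a pathway list and found on the arrays through the RefSeq accession of each probe. All 36 had a probe that passed the filter on dim signals, out of 14192 genes tested. They comprised 17 enzymes of mevalonate and sterol synthesis, 6 genes of the SREBP system including a sterol carrier, 2 LXR receptors, 4 genes of sterol efflux and lipoprotein uptake, 5 lipogenic genes, and 2 genes of oxysterol and cholesteryl ester formation.

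The cells were grown from bone marrow in M-CSF for a week and plated in separate wells. The first genotype was Junb-fl/fl Lyz2-Cre+/+ on the C57BL/6 background (Junb KO), in which Cre sits in both copies of the myeloid lysozyme gene Lyz2. The second was C57BL/6 wild type (WT). Wells of each received lipopolysaccharide (LPS), an endotoxin of bacterial outer membranes, at 100 ng/ml, or a mock treatment (untreated), for 4 h before lysis. The arrays comprised 3 of Junb KO LPS cells, 4 of Junb KO untreated, 4 of WT LPS and 4 of WT untreated cells. Replicates were wells, so the p-values measure the spread between wells, which may be technical, and not between mice. All Junb KO arrays lay on slide 1 and all WT arrays on slide 2, so a comparison between genotypes is also one between slides, and the 2 cannot be told apart. Junb loss, Cre and the loss of Lyz2 cannot be told apart either. The LPS comparisons lie within a slide.

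As background, SREBP2 is a membrane-bound transcription factor that is held in the endoplasmic reticulum by SCAP and the INSIG proteins while sterol is plentiful. When sterol falls, it is cut free and turns on the synthesis enzymes. LXR alpha (Nr1h3) and LXR beta (Nr1h2) are nuclear receptors that bind oxysterols and turn on export pumps such as Abca1 and Abcg1, the lipoprotein receptor ligase Mylip, and lipogenic genes through Srebf1 and Scd1. In macrophages, Ch25h makes the oxysterol 25-hydroxycholesterol, which restrains SREBP processing. Toll-like receptor signals and LXR are known to oppose each other in macrophages.

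The start regions of the genes were read from RefSeq windows (build GRCm38.p6, 250 bases before to 50 after a start), which were found for 29 of the 36 genes. Both strands were searched for CCAAT, bound by NF-Y, a partner of SREBP2, and for TCACNCCAC, a sterol response element. They were also searched for TGANTCA, an AP-1 element bound by JUNB dimers. These motifs do not overlap one another in the windows printed here. All 14 synthesis genes with a window held CCAAT, as did 4 of 7 LXR-type genes, against 41.1% of all 27025 genes. TCACNCCAC was found in Hmgcs1 alone among the 29 genes, against 1.44% of all genes, and TGANTCA in Msmo1 and Dhcr7, against 8.97%. For LXR, only close matches to the DR4 consensus, with up to 1 mismatch, were searched for. Such a match was in no member's window and in 0.278% of all genes. Looser forms of DR4 were not searched for, so this count does not show that the windows lack an LXR element. Printed below are Hmgcs1, with TCACNCCAC and CCAAT, Msmo1, with TGANTCA and CCAAT, and Ch25h, the most strongly induced member. Ch25h held none of the motifs searched for. Other AP-1 forms, such as the TGACGTCA in its window, were not searched for. Capitals mark the motif matches on either strand, and each window is written on the gene's own strand, 5′ to 3′. The windows are chr13:119690101-119690400 (plus strand), chr8:64733529-64733828 (minus strand) and chr19:34475099-34475398 (minus strand). A match describes letters only and says nothing about binding.
Hmgcs1: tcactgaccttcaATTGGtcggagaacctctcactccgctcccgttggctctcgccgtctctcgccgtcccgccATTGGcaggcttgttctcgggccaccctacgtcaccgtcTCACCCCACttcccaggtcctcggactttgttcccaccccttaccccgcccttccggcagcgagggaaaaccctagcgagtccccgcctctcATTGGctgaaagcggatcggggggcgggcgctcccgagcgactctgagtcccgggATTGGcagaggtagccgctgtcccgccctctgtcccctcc
Msmo1: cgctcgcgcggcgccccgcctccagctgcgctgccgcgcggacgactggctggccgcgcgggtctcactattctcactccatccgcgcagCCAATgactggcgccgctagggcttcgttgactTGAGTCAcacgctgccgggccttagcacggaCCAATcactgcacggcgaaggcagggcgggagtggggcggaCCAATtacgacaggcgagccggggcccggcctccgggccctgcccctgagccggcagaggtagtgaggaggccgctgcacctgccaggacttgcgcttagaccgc
Ch25h: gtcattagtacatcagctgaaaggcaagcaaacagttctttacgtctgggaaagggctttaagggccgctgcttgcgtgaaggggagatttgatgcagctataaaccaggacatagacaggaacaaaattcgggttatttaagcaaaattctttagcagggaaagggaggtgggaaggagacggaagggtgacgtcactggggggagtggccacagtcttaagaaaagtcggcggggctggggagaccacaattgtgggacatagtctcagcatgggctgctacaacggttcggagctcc

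Junb was well above background on 0 of 7 Junb KO arrays, with signals of 0.645 to 3.71 with LPS and -0.395 to 4.15 untreated, against 4320 to 9570 with LPS and 1290 to 2070 untreated in WT cells. Lyz2, which carries Cre, had signals of 869 to 3790 in Junb KO and 346000 to 448000 in WT cells. Of 8 macrophage markers, 7 had a probe and all 7 were well above background on every array. The summed neutrophil markers (units of the array's 75th percentile) moved with LPS. The sums were 18.2 to 20.7 in Junb KO LPS and 5.79 to 6.63 in Junb KO untreated cells, against 48.4 to 64.9 in WT LPS and 6.88 to 11.9 in WT untreated cells. Mpo was above background on no array, S100a9 on no Junb KO array and Ngp on none outside Junb KO LPS. Of the 4 neutrophil markers tested, 2 passed as higher with LPS in Junb KO and 3 in WT cells. Their log2 changes ran from 0 to 2.77 and from -0.01 to 2.74, so these sums do not describe every marker. The summed fibroblast markers were 17.6 to 19.7 and 2.82 to 4.36 in Junb KO LPS and untreated cells, and 6.12 to 9.48 and 2.29 to 4.64 in WT LPS and untreated cells (Pdgfra was above background on no array outside WT LPS). Of the 4 fibroblast markers tested, 1 passed as higher with LPS in Junb KO and 2 in WT cells. Their log2 changes ran from 0.5 to 6.14 and from -0.23 to 3.91, so the sums do not describe the whole list. The part of the neutrophil and fibroblast markers in the results below was not tested, and fewer cells of a type cannot be told apart from less RNA per cell. Of 5 adipocyte markers, Adipoq, Plin1, Lep and Cfd were above background on no array, and Cidec on none outside WT LPS. Around its group mean, a gene's log2 level deviated with an SD of 0.638 on Junb KO untreated replicate 3, 0.540 on WT untreated replicate 1 and 0.526 on WT LPS replicate 4, against 0.231 to 0.434 on the other arrays.

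With LPS, more of these genes fell than rose. Levels below are log2 of the signal relative to the array's 75th percentile, and changes are log2 LPS over untreated with their SE from limma, with adjusted p (Benjamini-Hochberg over all genes) below 0.05 as the threshold. In Junb KO cells 8 of 36 genes rose (22.2%, against 32.5% of all genes) and 16 fell (44.4%, against 27.5%). In WT cells 11 rose (30.6%, against 34.9%) and 14 fell (38.9%, against 25.5%). Of the calls, 8 genes rose and 13 fell in both genotypes, 3 were called in Junb KO alone and 4 in WT alone, and none were called in opposite directions. The same split was not counted over all genes, so it is not read as a trait of these genes. The median change of the 36 genes was -0.28 in Junb KO and -0.23 in WT cells, against 0.19 and 0.14 for all genes tested. With quantile normalisation in place of the 75th percentile the all-gene medians moved to -0.08 and -0.12, and the 17 synthesis genes lay -0.57 and -0.66 from them, compared with -0.49 and -0.37 in the main scaling. Several of the brightest synthesis genes change sign with that scaling, and each is named where it occurs.

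**Figure D1:**
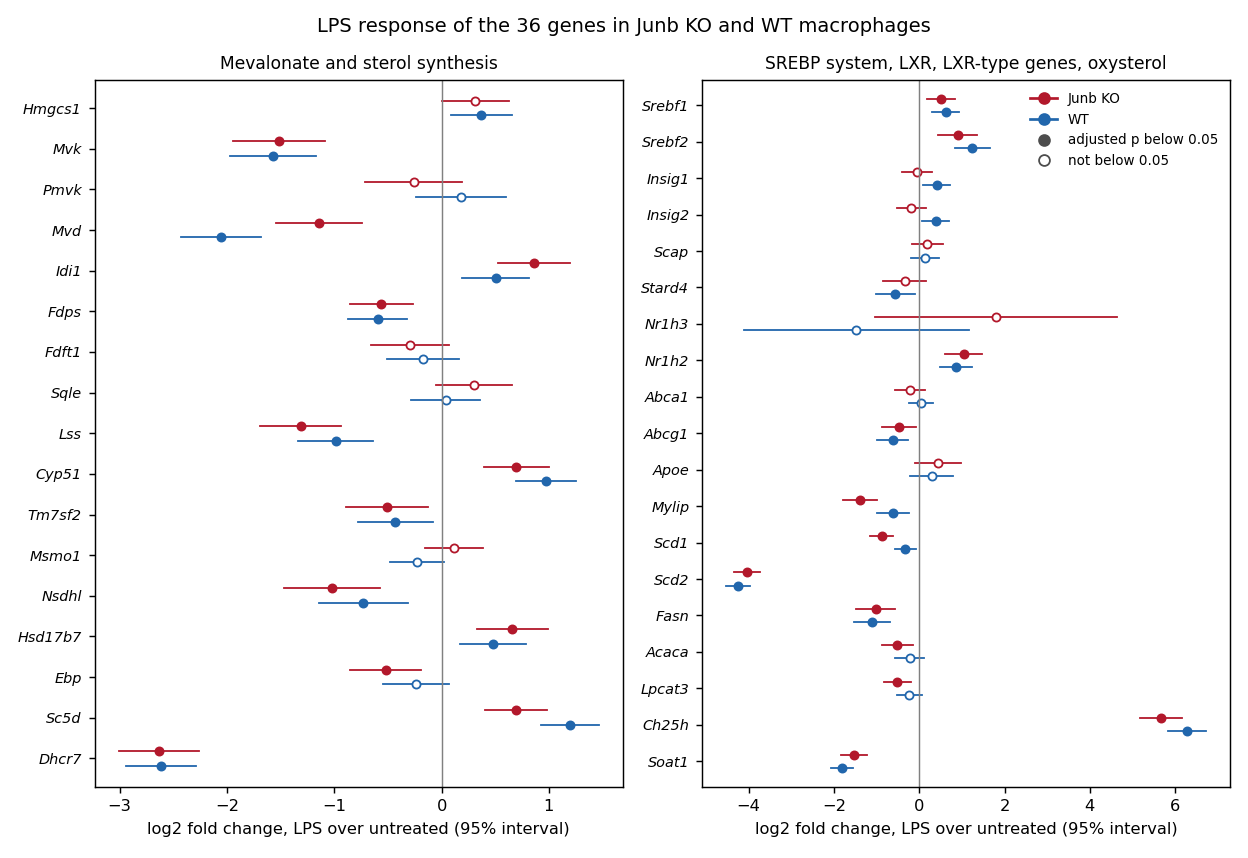
Log2 fold change by LPS (x axis) of each of the 36 genes (rows, by role) in Junb KO (red, n = 3 LPS and 4 untreated) and WT (blue, n = 4 and 4) macrophages, with 95% intervals. Filled points passed the threshold. Ch25h lies far above and Scd2 far below the other genes in both genotypes, and the wide bars of Nr1h3 come from 1 array.

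Among the early mevalonate enzymes, Mvk and Mvd fell strongly in both genotypes while Idi1 rose. Mvk, mevalonate kinase, was at 0.59, 1.52 and 1.18 in Junb KO LPS cells, against 2.77, 2.42, 2.57 and 2.70 in Junb KO untreated cells. The WT levels were 1.55, 1.55, 1.63 and 1.28 with LPS, against 2.71, 3.27, 3.03 and 3.27 untreated. Every LPS array lay below every untreated array of its genotype, and Mvk fell by 1.51 ± 0.20 in Junb KO (adjusted p = 1.56e-05) and by 1.57 ± 0.18 in WT cells (adjusted p = 4.53e-06).

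Mvd, the decarboxylase that makes isopentenyl diphosphate, was at 0.23, 0.19 and 0.33 in Junb KO LPS cells, against 1.34, 1.64, 1.06 and 1.52 in Junb KO untreated cells. WT arrays read 0.07, 0.90, 0.38 and 0.32 with LPS, against 2.57, 2.43, 2.21 and 2.67 untreated. The LPS arrays of the 2 genotypes overlapped at low levels, whereas their untreated arrays did not overlap. The change was -1.14 ± 0.19 in Junb KO (adjusted p = 0.000115) and -2.05 ± 0.17 in WT cells (adjusted p = 1.44e-07).

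Idi1, the isomerase of isopentenyl diphosphate, rose by 0.86 ± 0.16 in Junb KO and by 0.50 ± 0.14 in WT cells, but its change was 0.12 and -0.22 with quantile normalisation, past the threshold in neither. Hmgcs1, HMG-CoA synthase, had a change of 0.31 ± 0.14 in Junb KO cells (adjusted p = 0.0737) and rose by 0.37 ± 0.13 in WT cells (adjusted p = 0.027), but with quantile normalisation it fell in both, by 0.45 and 0.39 (adjusted p = 0.00375 and 0.00503). The WT rise was also lost with normexp background correction (adjusted p = 0.119) and without WT untreated replicate 1 or 2, or WT LPS replicate 1 or 3. Fdps, which makes farnesyl diphosphate, fell by 0.56 ± 0.14 in Junb KO and 0.60 ± 0.13 in WT cells. Pmvk (-0.26 and 0.18), Fdft1 (-0.29 and -0.17) and Sqle (0.30 and 0.04) did not pass in Junb KO and WT cells. With quantile normalisation Fdft1 (by 0.66 and 0.69) and Sqle (by 0.46 and 0.71) fell in both genotypes. Pmvk fell by 0.60 in Junb KO cells there and had a change of -0.31 in WT cells (adjusted p = 0.0543).

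In the sterol branch, Dhcr7, Lss and Nsdhl fell and Cyp51, Sc5d and Hsd17b7 rose, in both genotypes. Dhcr7, which carries out the last reduction to cholesterol, was well above background on none of the 3 Junb KO LPS arrays, whose levels stood at the floor of -4.52. It was at -2.07, -1.65 and -1.94 on 3 Junb KO untreated arrays, the remaining one (replicate 3) having been set to missing. Among WT arrays it stood at -3.54, -3.24, -3.38 and -3.49 with LPS, against -0.64, -0.97, -1.13 and -0.44 untreated. It was at least 6.205-fold lower with LPS in Junb KO cells (fitted change -2.63, adjusted p = 3.06e-08) and fell by 2.62 ± 0.15 in WT cells (adjusted p = 6.61e-09). Such a bound sets the mean of the brighter arrays against the detection limit on the dimmer ones. The Junb KO LPS arrays have an SD of 0 at the floor, so the floor limits the SE and adjusted p of the Dhcr7 fits.

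Lss, which closes squalene epoxide to lanosterol, fell by 1.31 ± 0.18 in Junb KO and 0.99 ± 0.16 in WT cells. Nsdhl, a dehydrogenase that removes sterol methyl groups, fell by 1.02 ± 0.21 and 0.73 ± 0.19. Its other kept probe gave -0.17 (adjusted p = 0.638) in Junb KO and -0.72 in WT cells. Tm7sf2, a sterol reductase, fell by 0.51 ± 0.18 and 0.43 ± 0.16, but the Junb KO call was lost without Junb KO untreated replicate 1 or 3 or LPS replicate 3 or 4, and the WT call without WT untreated replicate 2, 3 or 4 or LPS replicate 1 or 4. Ebp, the sterol isomerase, fell by 0.52 ± 0.16 in Junb KO cells and had a change of -0.24 in WT cells (adjusted p = 0.166). With quantile normalisation it fell in both, by 1.08 and 0.95, and with normexp WT cells also passed (-0.39, adjusted p = 0.0358). The Junb KO call of Ebp was lost without Junb KO LPS replicate 4.

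Cyp51, the lanosterol demethylase, was at 3.22, 2.99 and 3.15 in Junb KO LPS cells, against 2.51, 2.70, 2.30 and 2.18 in Junb KO untreated cells. For WT cells the levels were 3.09, 2.94, 3.17 and 2.95 with LPS, against 1.82, 2.12, 2.05 and 2.27 untreated. No LPS array overlapped an untreated array of its genotype, and the change was 0.70 ± 0.14 in Junb KO and 0.97 ± 0.13 in WT cells, a direction that quantile normalisation kept (0.42 and 0.69). Sc5d, the sterol desaturase, rose by 0.69 ± 0.14 and 1.20 ± 0.13, or 0.20 and 0.53 with quantile normalisation. Hsd17b7, a keto reductase, rose by 0.66 ± 0.15 and 0.48 ± 0.14. Msmo1, a sterol methyl oxidase, did not pass in either genotype (0.11 and -0.23), and with quantile normalisation it fell past the threshold in both, by 0.65 and 0.96. Of the 17 synthesis genes, 4 rose (23.5%, against 32.5% of all genes) and 8 fell (47.1%, against 27.5%) in Junb KO cells. In WT cells 5 rose (29.4%, against 34.9%) and 7 fell (41.2%, against 25.5%). With quantile normalisation 3 rose and 13 fell in Junb KO cells, and 3 rose and 12 fell in WT cells. Over all 14192 genes, 3069 rose and 5178 fell in Junb KO cells with that scaling, and 3693 rose and 5098 fell in WT cells.

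Of the regulators, Srebf1 and Srebf2 rose in both genotypes. Srebf2, which encodes SREBP2, was at 2.82, 2.54 and 3.14 in Junb KO LPS cells, against 1.69, 2.35, 1.70 and 2.0 in Junb KO untreated cells. On the WT arrays it measured 3.46, 3.76, 3.67 and 3.71 with LPS, against 2.81, 2.19, 2.08 and 2.54 untreated. It rose by 0.90 ± 0.21 in Junb KO and by 1.24 ± 0.19 in WT cells, with no overlap between LPS and untreated arrays, while its other kept probe gave -0.02 (adjusted p = 0.967) and 0.72 (adjusted p = 0.00677). Srebf1 rose by 0.51 ± 0.16 and 0.61 ± 0.14, the Junb KO call being lost without Junb KO LPS replicate 4. Insig1 and Insig2, which hold SREBP back, rose in WT cells (0.41 ± 0.15 and 0.38 ± 0.15) but had a change of -0.06 each there with quantile normalisation, and neither passed with normexp. The WT call of Insig1 was lost without WT untreated replicate 3 or LPS replicate 2, and that of Insig2 without WT untreated or LPS replicate 1, 2 or 3. In Junb KO cells the change of Insig1 was -0.05 and that of Insig2 -0.19, neither past the threshold, but Insig2 fell by 0.57 there with quantile normalisation (adjusted p = 0.000549). Scap, the SREBP escort, did not pass in either genotype (0.19 and 0.14, or -0.15 and -0.25 with quantile normalisation). The sterol carrier Stard4 was lower in WT cells (-0.56 ± 0.22) and did not pass in Junb KO cells (-0.34), but its other kept probe rose in both (0.53 and 0.56), so its direction depends on the probe. The WT call was lost without WT untreated replicate 3 or 4 or LPS replicate 2 or 4.

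**Figure D2:**
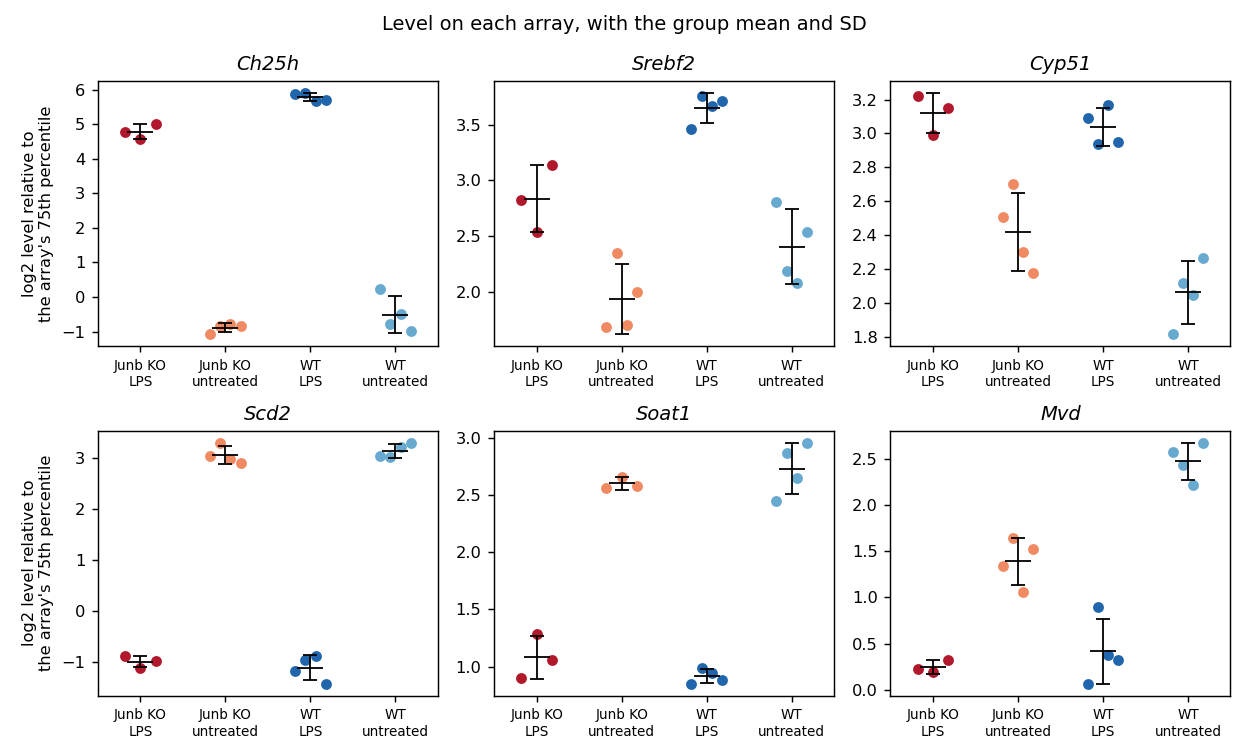
Level of 6 genes on each array (points; y axis, log2 of the signal relative to the array's 75th percentile) by group, with the group mean and SD (bars). LPS arrays stand apart from untreated arrays of the same genotype for each of the 6 genes, and the untreated groups of Mvd do not overlap.

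Of the LXR receptors, Nr1h2 (LXR beta) was at 6.07, 6.06 and 5.83 in Junb KO LPS cells, against 5.14, 4.91 and 4.79 on 3 Junb KO untreated arrays, replicate 3 having been set to missing. In WT cells it was at 6.04, 5.67, 5.75 and 5.42 with LPS, against 4.39, 4.93, 5.02 and 5.09 untreated. It rose by 1.04 ± 0.20 in Junb KO and 0.86 ± 0.17 in WT cells, or 0.39 and 0.10 with quantile normalisation, the WT value not past the threshold.

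Nr1h3 (LXR alpha) turned on 1 array. It was at 5.36, 5.07 and 5.04 in Junb KO LPS cells, against 5.30, 5.16, -2.10 and 5.07 in Junb KO untreated cells. The WT levels were 3.92, 3.81, 3.82 and 3.48 with LPS, against 4.97, 5.26, 5.21 and 5.49 untreated. The WT arrays do not overlap, and the Junb KO arrays other than untreated replicate 3 lie within the range of the WT untreated arrays. That array was also far below its group for other pathway genes: Ncor1 at -3.35 (others 1.68 to 2.23), Ppard at -1.84 (1.71 to 2.26) and Me1 at -3.08 (3.07 to 3.20). With all arrays in the fit nothing passed: 1.79 ± 1.32 in Junb KO and -1.47 ± 1.22 in WT cells (adjusted p = 0.255 and 0.324).

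With Junb KO untreated replicate 3 left out, the LPS change was -0.02 (adjusted p = 0.911) in Junb KO and -1.47 in WT cells (adjusted p = 5.85e-07), their difference was 1.45 (adjusted p = 0.000856), and with LPS the level was 1.40 higher in Junb KO than in WT cells (adjusted p = 1.76e-05). The other kept probe, turned to after the values were seen, read 3.04, 2.54 and 2.90 in Junb KO LPS cells and 3.23, 3.31, 2.90 and 3.12 in Junb KO untreated cells, against 1.95, 2.23, 1.65 and 1.69 in WT LPS and 3.37, 3.23, 3.06 and 3.70 in WT untreated cells. On that probe, with every array included, the difference between the LPS changes was 1.15 ± 0.26 (adjusted p = 0.0175 over all kept probes) and the WT change -1.46 ± 0.17 (adjusted p = 7.90e-06), while the Junb KO change was -0.31 ± 0.19 (adjusted p = 0.18).

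**Figure D3:**
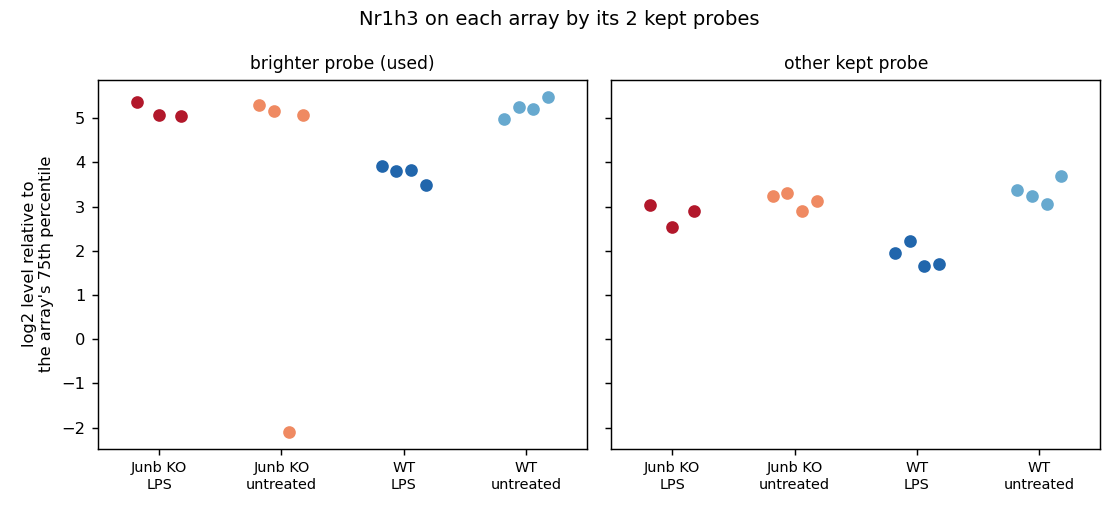
Level of Nr1h3 on each array (y axis, log2 of the signal relative to the array's 75th percentile) for both kept probes, by group. On either probe the WT LPS arrays lie below the other groups, apart from 1 Junb KO untreated array at -2.10 on the brighter probe.

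Among the genes of efflux and uptake, Abcg1 and Mylip fell, and Abca1 and Apoe did not pass with the 75th-percentile scaling. Abcg1, a sterol export pump, was at 4.38, 4.12 and 4.09 in Junb KO LPS cells, against 4.77, 4.56, 4.79 and 4.60 in Junb KO untreated cells. WT arrays read 3.82, 3.33, 3.71 and 3.28 with LPS, against 3.69, 4.14, 4.34 and 4.46 untreated, where 1 untreated array falls within the LPS range. The change was -0.48 ± 0.18 in Junb KO (adjusted p = 0.037) and -0.62 ± 0.17 in WT cells (adjusted p = 0.00568). Without Junb KO untreated replicate 1 or 3, or LPS replicate 3 or 4, the Junb KO call was lost. The change of Abca1 was -0.23 (2 LPS arrays) and 0.04, but with quantile normalisation Abca1 fell in both genotypes, by 0.97 and 0.73 (adjusted p = 1.17e-05 and 2.5e-05). The change of Apoe was 0.44 and 0.29, or -0.11 and 0.05 with quantile normalisation, none past the threshold. Its unscaled signals lay close together, at 330500 to 397000 in Junb KO LPS and 368700 to 429700 in Junb KO untreated cells, and at 366800 to 448600 in WT LPS and 423100 to 469400 in WT untreated cells. The 75th percentile that divides them ran from 482 to 1490 over the arrays, and although the scanner marked no spot as saturated, nothing is read from the scaled change of Apoe.

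Mylip, the ligase that degrades lipoprotein receptors, was at 3.54, 3.17 and 3.33 in Junb KO LPS cells, against 4.80, 4.64, 5.07 and 4.46 in Junb KO untreated cells. Among WT arrays it stood at 3.41, 3.01, 3.21 and 2.80 with LPS, against 3.36, 3.82, 3.77 and 3.99 untreated. The Junb KO untreated arrays lie above all other arrays, and the WT groups overlap at their edges. Mylip fell by 1.40 ± 0.19 in Junb KO and by 0.63 ± 0.17 in WT cells. The difference of -0.77 ± 0.26 did not pass (adjusted p = 0.0761), and the other kept probe gave -0.58 and -0.39, neither past the threshold.

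The lipogenic genes gave the largest fall of the set. Scd2, a stearoyl-CoA desaturase that makes monounsaturated fatty acids, was at -0.88, -1.11 and -0.97 in Junb KO LPS cells, against 3.04, 3.30, 2.99 and 2.91 in Junb KO untreated cells. For WT cells the levels were -1.18, -0.95, -0.88 and -1.42 with LPS, against 3.04, 3.02, 3.22 and 3.29 untreated. The groups are far apart, with fold decreases of 16.5 in Junb KO and 19.01 in WT cells (-4.05 ± 0.14 and -4.25 ± 0.13, adjusted p = 2.37e-11 and 4.64e-12). The genotypes overlap in each state. Scd1, its paralog, fell by 0.88 ± 0.13 in Junb KO and 0.33 ± 0.12 in WT cells (the WT call was lost without WT untreated replicate 1 or 2 or LPS replicate 4), and the genotype difference of -0.55 ± 0.17 did not pass (adjusted p = 0.0582). Fasn, fatty acid synthase, fell by 1.02 ± 0.21 and 1.11 ± 0.19. Acaca, acetyl-CoA carboxylase, and Lpcat3, a phospholipid acyltransferase, fell in Junb KO cells by 0.52 ± 0.17 and 0.52 ± 0.15, and each had a change of -0.23 in WT cells, without passing. The Junb KO call of Acaca was lost without Junb KO LPS replicate 3 or 4. With quantile normalisation both genes also fell in WT cells, by 0.47 and 0.51 (adjusted p = 0.0133 and 0.00108). Their difference between genotypes did not pass (adjusted p = 0.468 and 0.409). All 5 lipogenic genes fell in Junb KO cells (against 27.5% of all genes) and 3 of 5 in WT cells (60%, against 25.5%). With quantile normalisation 5 of 5 fell in both, while 5178 (Junb KO) and 5098 (WT) of all 14192 genes fell.

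Ch25h rose more than any other member. It was at 4.78, 4.56 and 5.01 in Junb KO LPS cells, against -1.07, -0.85, -0.78 and -0.83 in Junb KO untreated cells. On the WT arrays it measured 5.87, 5.89, 5.66 and 5.69 with LPS, against 0.24, -0.79, -0.50 and -0.98 untreated. The rise was 50.8-fold in Junb KO and 77.9-fold in WT cells (5.67 ± 0.23 and 6.28 ± 0.21, adjusted p = 7.82e-11 and 9.01e-12). Soat1, which esterifies cholesterol for storage, was at 0.90, 1.28 and 1.06 in Junb KO LPS cells, against 2.56, 2.66 and 2.58 on the 3 Junb KO untreated arrays with a value. In WT cells it was at 0.85, 0.99, 0.94 and 0.88 with LPS, against 2.45, 2.87, 2.65 and 2.95 untreated. It fell by 1.52 ± 0.14 and 1.81 ± 0.12, with no overlap between LPS and untreated arrays in either genotype.

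The LXR-type genes were Abca1, Abcg1, Apoe, Mylip, Srebf1, Scd1, Scd2, Fasn, Acaca and Lpcat3. Of these 10, 1 rose (10%, against 32.5% of all genes) and 7 fell (70%, against 27.5%) in Junb KO cells. In WT cells 1 rose (10%, against 34.9%) and 5 fell (50%, against 25.5%). Their median change was -0.52 and -0.28, against -0.29 and -0.23 for the 17 synthesis genes. With quantile normalisation 8 of 10 LXR-type genes fell in each genotype, while 5178 (Junb KO) and 5098 (WT) of all 14192 genes fell. The medians there were -0.96 and -0.62, against -0.66 and -0.78 for the synthesis genes. In the deposited value table with its repeated value missing they were -0.71 and -0.35 (8 LXR-type genes), against -0.76 and -0.70 (16 synthesis genes). Which list lay lower depends on the scaling, and in that value table the gene sets also differ. Of the 24 genes called in Junb KO cells, 23 kept call and direction with quantile normalisation, Idi1 being the exception. Of the 25 called in WT cells, 20 did, with Hmgcs1, Idi1, Insig1, Insig2 and Nr1h2 as exceptions.

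**Figure D4:**
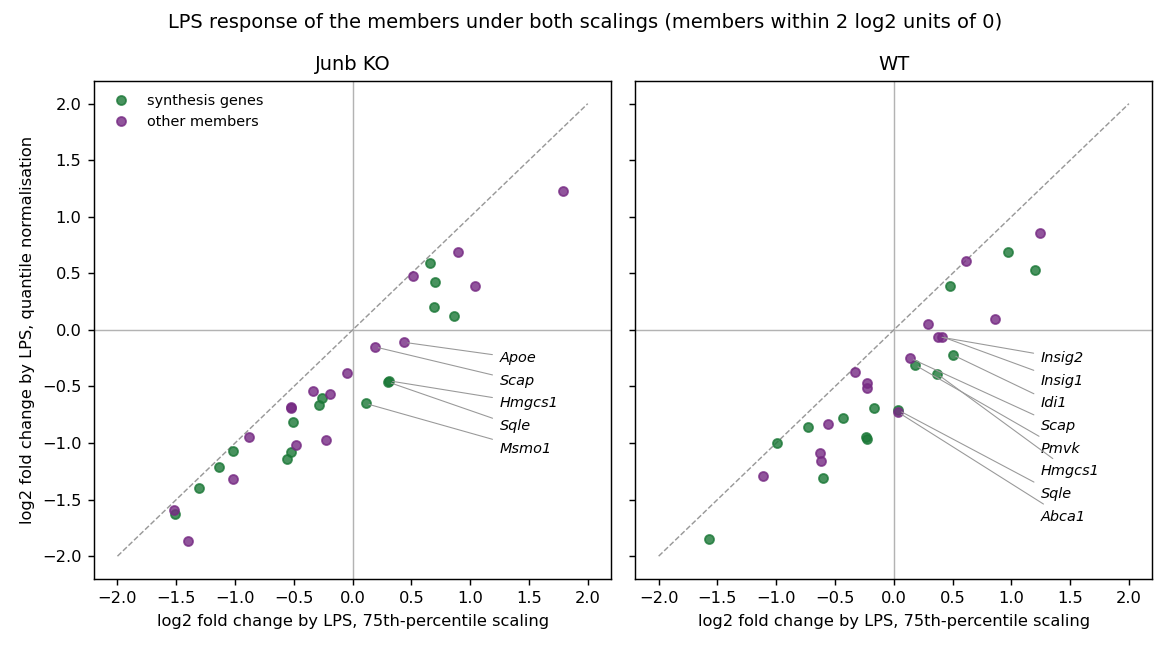
Log2 fold change by LPS with the 75th-percentile scaling (x axis) against quantile normalisation (y axis), in Junb KO (left) and WT (right) cells, for members within 2 log2 units of 0. Most points lie below the dashed line of equality, and the named genes change sign between scalings, 5 in Junb KO and 8 in WT cells.

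Comparing genotypes, the LPS responses differed past the threshold for 1 of 36 genes. This was Mvd, whose fall was smaller in Junb KO cells by 0.91 ± 0.26 (adjusted p = 0.0377), while 2.9% of all genes were called higher and 7.15% lower in this test, against 2.78% and 0% of the members. The Mvd call was lost without any 1 of 11 of the 15 arrays, the exceptions being Junb KO untreated replicates 2 and 4, WT untreated replicate 3 and WT LPS replicate 2. The count of calls is 0 with normexp background correction. Nr1h3 did not pass with every array in the fit (3.27 ± 1.80, adjusted p = 0.287). As given above, its difference was 1.45 without Junb KO untreated replicate 3, and it passed on its other kept probe.

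In untreated cells 2 of 36 genes were higher in Junb KO than in WT cells (5.56%, against 11.9% of all genes) and 3 lower (8.33%, against 5.83%). Scd1 was at -0.04, 0.14, -0.19 and -0.16 in Junb KO untreated cells, against -1.30, -1.48, -1.73 and -1.50 in WT untreated cells. It was 2.72-fold higher (1.44 ± 0.12, adjusted p = 1.71e-06). Mylip was 2.01-fold higher (1.01 ± 0.17, adjusted p = 0.00113), from the untreated values given above, but its other kept probe gave 0.09 (adjusted p = 0.975). Dhcr7 was lower by 1.09 ± 0.16 (adjusted p = 0.000487), Mvd by 1.08 ± 0.17 (adjusted p = 0.000653), and Fdps by 0.41 ± 0.13 (adjusted p = 0.0385). Fdps lost its call without any 1 of 9 of the 15 arrays, the exceptions being Junb KO untreated replicate 4, Junb KO LPS replicate 3, WT untreated replicates 1 and 4, and WT LPS replicates 2 and 4.

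With LPS, 2 of 36 genes were higher in Junb KO than in WT cells (5.56%, against 13.6% of all genes) and 8 lower (22.2%, against 17.1%). Scd1 was at -0.87, -1.16 and -0.81 in Junb KO LPS cells, against -1.77, -1.86, -1.81 and -1.90 in WT LPS cells, and was higher by 0.89 ± 0.13 (adjusted p = 0.000143). Abcg1 was higher by 0.66 ± 0.18 (adjusted p = 0.0148) and lost its call without Junb KO LPS replicate 2. Of the lower genes, Dhcr7 was at least 2.151-fold lower (fitted -1.10 ± 0.16, adjusted p = 0.000273), a call lost with normexp (-0.42, adjusted p = 0.0732). As above, the floor limits the SE and adjusted p of that fit. Ch25h was lower by 0.99 ± 0.23 (adjusted p = 0.00463) and Srebf2 by 0.82 ± 0.21 (adjusted p = 0.00903), with no overlap of the 2 genotypes' LPS arrays. Nsdhl, Lss, Sc5d, Pmvk and Lpcat3 were lower by 0.85, 0.69, 0.71, 0.62 and 0.46. Nsdhl's other kept probe gave 0.39 (adjusted p = 0.334), while that of Pmvk gave -0.94 (adjusted p = 0.00108). The call of Srebf2 and that of Lss were lost without Junb KO LPS replicate 3. Pmvk lost its call without any Junb KO LPS array or WT LPS replicate 1, 2 or 3, and Lpcat3 without Junb KO LPS replicate 2 or 3 or WT LPS replicate 2. The count of lower genes was 5 without Junb KO LPS replicate 3.

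**Figure D5:**
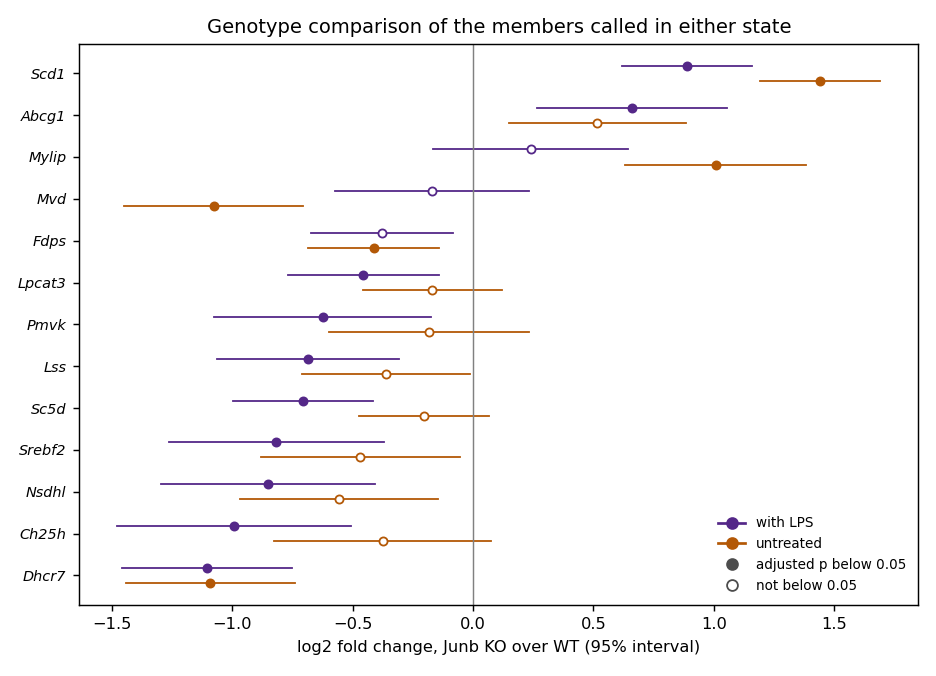
Log2 fold change of Junb KO over WT (x axis) with LPS (purple) and untreated (orange) for each member called in either state, with 95% intervals. Filled points passed the threshold. Scd1 lies to the right and Dhcr7 to the left of 0 in both states.

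Other genes of these pathways, given from a list of 51 of which 47 were measured, were counted the same way. In Junb KO cells 10 rose (21.3%, against 32.5% of all genes) and 20 fell (42.6%, against 27.5%). In WT cells 9 rose (19.1%, against 34.9%) and 17 fell (36.2%, against 25.5%). Fads1, a fatty acid desaturase, fell by 3.25 ± 0.17 in Junb KO and 3.25 ± 0.15 in WT cells, and Nceh1, a cholesteryl ester hydrolase, by 1.93 ± 0.19 and 1.68 ± 0.17. Dgat2, which makes triglyceride, rose by 3.09 ± 0.24 in Junb KO and 4.22 ± 0.22 in WT cells. The LPS responses differed past the threshold for 6 of the 47, with 1 higher (2.13%, against 2.9% of all genes) and 5 lower (10.6%, against 7.15%). Ppargc1b, a coactivator, rose by 1.01 ± 0.14 in Junb KO and fell by 1.39 ± 0.13 in WT cells, a difference of 2.39 ± 0.19 (adjusted p = 4.0e-06). Its levels reached the floor of -4.52, with -4.52, -4.52, -4.32 and -4.49 in WT LPS cells, where 1 of 4 arrays was well above background. Junb KO untreated cells read -4.0, -4.52, -4.02 and -4.05, so the floor limits the sizes and SE of these changes. Dgat2, Rxra, Arl4c, Pparg and Npc1 had lower changes in Junb KO, by 1.14, 1.01, 1.00, 0.96 and 0.70.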

How the data were processed

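Total RNA was amplified as aminoallyl-aRNA and labelled with Cy3 for 1-colour Agilent mouse arrays, per the labels' protocols, and read with Agilent Feature Extraction 10.7.3.1, per the file headers. The deposited processed signal is a background-subtracted intensity with no scaling between arrays, per the file headers. The deposited value table holds log2 values whose background step and exact method are not given in the sources used here. On 5 arrays it repeats a value of 7.35 to 7.48 over 924 to 3202 features, which serve here only as an alternative.

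Spots marked non-uniform or population outlier were set to missing (4827), each signal was divided by its array's 75th percentile and floored (-4.52 on the log2 scale). Probes had to be called well above background on 3 or more arrays within a group, and a gene took its kept probe with the highest mean. Probes were named through RefSeq accessions (26582 with exactly 1 symbol). The 75th percentile of the signal ran from 482 to 1490 over the arrays, and their number limits the precision.

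Group means were fitted with limma 3.58.1 in R 4.3.3 over all 15 arrays, with Benjamini-Hochberg adjustment over 14192 genes, after the method was tested on simulated data. All 36 members are accounted for; full array values are given for those with the largest LPS change or a called genotype difference, and others by change and counts. The members, lists and tests were chosen with earlier results of these data known. Deviations of same-numbered LPS arrays of the 2 genotypes correlated at r = 0.446, 0.244 and 0.135. Differently numbered arrays were not compared, so these values cannot show whether arrays pair by number, and pairing is not established. The main fit had no pairing term, and a replicate block kept all 10 calls of the genotype comparison with LPS. Untreated arrays of the 2 genotypes all correlated below 0 (-0.393 to -0.079), and no other pair of groups had every correlation above 0.1. Alternatives were quantile normalisation, normexp (offset 50), the value table, no filter, the mean of probes, a replicate block, leaving out arrays and, for LPS, only arrays of that genotype. Some genes of the wider pathway list are counted but not reported here by name.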

Additional observations from a re-analysis of the deposited data

Results flagged for a closer look

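In groups of 4 arrays, 4 members had 1 array far from the other 3, out of 105 groups tested, of which chance flags about 1 in 20. Nr1h3 was at -2.10 on Junb KO untreated replicate 3, against 5.07 to 5.30 on the other arrays of its group. Idi1 was at 6.16 on Junb KO untreated replicate 1, against 5.87 to 5.89. Srebf1 was at -0.16 on Junb KO untreated replicate 2, against -0.66 to -0.65. Insig1 was at 2.90 on WT untreated replicate 3, against 3.26 to 3.30. The LPS response of Mvd differed between genotypes by 0.91 in the test of the difference itself, the fall being smaller in Junb KO cells.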

How the results depend on the processing

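Counts of called members were compared with the main counts of 8 higher and 16 lower (LPS in Junb KO), 11 and 14 (LPS in WT), 1 and 0 (difference of responses), 2 and 3 (untreated genotypes) and 2 and 8 (genotypes with LPS). With quantile normalisation they were 7 and 23, 6 and 22, 1 and 1, 6 and 6, and 3 and 8. With normexp they were 8 and 16, 8 and 15, 0 and 0, 3 and 5, and 2 and 7. With the deposited value table (31 members) they were 3 and 19, 3 and 15, 0 and 0, 1 and 4, and 2 and 5; with its repeated value set to missing, chosen after the data were seen, 3 and 20, 5 and 16, 1 and 0, 1 and 4, and 3 and 8. Without the filter the difference of responses had 0 higher, and with the mean of probes 1 lower and, untreated, 1 higher. Leaving out each array gave 7 to 10 and 12 to 16, 9 to 11 and 11 to 15, 0 to 1 and 0 to 2, 2 to 5 and 2 to 5, and 1 to 3 and 5 to 11. The replicate block gave 8 and 15, 9 and 13, 1 and 0, 2 and 3, and 2 and 8; it lost Abcg1 (Junb KO), Hmgcs1, Insig2 and Tm7sf2 (WT) and Fdps (untreated), and changed no other call. Over all genes, rises were 54.2% (Junb KO) and 57.8% (WT) of LPS calls, against 37.2% and 42.0% with quantile normalisation.

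Among single genes, LPS changes turned sign with quantile normalisation in Junb KO cells for Hmgcs1 (-0.45), Sqle (-0.46), Msmo1 (-0.65), Scap (-0.15) and Apoe (-0.11), and in WT cells for Hmgcs1 (-0.39), Pmvk (-0.31), Idi1 (-0.22), Sqle (-0.71), Insig1 (-0.062), Insig2 (-0.063), Scap (-0.25) and Abca1 (-0.73). Normexp turned Sqle in WT cells (-0.11). The value table, with and without its repeated value, turned in Junb KO cells Hmgcs1 (-0.45), Sqle (-0.43), Msmo1 (-0.61), Scap (-0.15) and Apoe (-0.18), and in WT cells Hmgcs1 (-0.44), Pmvk (-0.20), Idi1 (-0.29), Sqle (-0.79), Insig1 (-0.081), Scap (-0.041) and Apoe (-0.018). With the repeated value kept it also turned Sc5d (-1.09) and Srebf1 (-0.092) in WT cells, and with LPS between genotypes Sc5d (1.17) and Ch25h (1.01), genes that hold that value on WT LPS replicate 3. With it missing, Nr1h3 in Junb KO cells was -0.61. The mean of probes turned Fdft1 in Junb KO (0.11) and Stard4 in WT cells (0.001). The other probe of Nr1h3 gave -0.31 in Junb KO cells. Leaving out arrays turned Insig1 (-0.17 to 0.14), Nr1h3 (-0.025 to 2.44) in Junb KO, and Sqle (-0.11 to 0.14) and Abca1 (-0.082 to 0.109) in WT cells. Where no cause is named, the cause was not tested. Lyz2 was changed by -8.24 with scaled and -8.28 with raw signals on the log2 scale; for Junb no ratio could be given, since some signals lie below 0.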

Other observations

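On WT LPS replicate 4, all 17 synthesis genes lay at or below their group's mean (mean deviation -0.20 on the log2 scale, 0 of 17 above), and 2 of all 36 members lay above it. On the same array all genes tested deviated by -0.027. On WT untreated replicate 1 the synthesis genes deviated by -0.21 and on WT LPS replicate 2 by 0.18, against -0.10 and -0.01 for all genes.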
